A study of Mus musculus with 6 samples.

Results

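Nuclear receptors let small molecules that circulate in blood act directly on genes. They bind DNA and change transcription when thyroid hormone, vitamin D, retinoic acid, estrogen or glucocorticoid occupies them, and the thyroid, vitamin D and retinoic acid receptors do so as pairs with a retinoid X receptor (RXR). In the growth plate, thyroid hormone drives chondrocytes from proliferation to hypertrophy, and glucocorticoid excess slows growth. Estrogen brings growth plate closure at puberty in humans, and retinoic acid restrains the cartilage program. Vitamin D supports mineralization through calcium supply and direct action on bone cells. The enzyme encoded by *Dio2*, type 2 deiodinase, converts the prohormone thyroxine to the active hormone T3 inside cells, so it sets the local supply of ligand for the thyroid hormone receptors. Levels of 8 receptor genes and *Dio2* are described here in 3 Control and 3 LS1 mice.

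The 9 genes were taken by symbol from the 47729 genes of the table, and each matched 1 row and passed the filter on low counts. LS1 is Longshanks line 1, a line selected for tibiae long for the weight of the mouse, and the Control mice are ICR animals bred at random. All mice were 14 days postnatal and untreated, came from different families of 1 generation, and each gave 1 library of polyadenylated RNA from its pooled pair of proximal tibial epiphyses. Sex is not given in the labels. Because LS1 is a single line, the effects of selection and of chance differences between lines cannot be told apart. The sampled tissue is labelled bone, cartilage and marrow, and markers of each were present. Chondrocyte, osteoblast, osteoclast, erythroid, neutrophil and B cell lists were all detected with no tested marker at 0 in any library. In bulk tissue, fewer cells of a type and less RNA per cell cannot be told apart.

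The recovered read totals were 68803249 to 76581954 in Control and 82227711 to 88745366 in LS1, so the deepest Control library held fewer reads than the shallowest LS1 library. On the first principal component, which held 35.1% of the variance, Control lay between -41.5 and -22.1, LS1 replicates 1 and 2 at 43.7 and 50.1, and LS1 replicate 3 apart from them at -4.29. Between 212 and 17675 reads stood behind each value of the 9 genes in a library. Values are normalized counts, the read count of a gene divided by the size factor of its library, and each library is 1 mouse. Log2 fold changes are LS1 minus Control on log2(normalized count + 1), from limma across all 19308 tested genes.

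None of the 9 genes passed an adjusted p-value of 0.05 with limma. *Dio2* had the largest difference, with a higher level in all LS1 mice, and *Vdr* had a lower level in all LS1 mice. These were also the 2 genes with an unadjusted limma p-value under 0.05, 1 in each direction. Over all tested genes, limma called 14 genes (0.0725%), 0.0104% as higher and 0.0622% as lower in LS1, and 12.9% had an unadjusted p-value under 0.05, 7.08% as higher and 5.86% as lower. With DESeq2, the tool of the study, 1 of the 9 genes was called, *Dio2*, against 2.38% of all genes. With edgeR, which called 0.0363% of all genes, 0 of the 9 genes were called. The groups did not overlap in 2 of the 9 genes, and in 19.2% of all genes. The median log2 fold change of the 9 genes was 0.0081, beside 0.0054 over all tested genes, and -0.0022 without LS1 replicate 3.

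**Figure D1:**
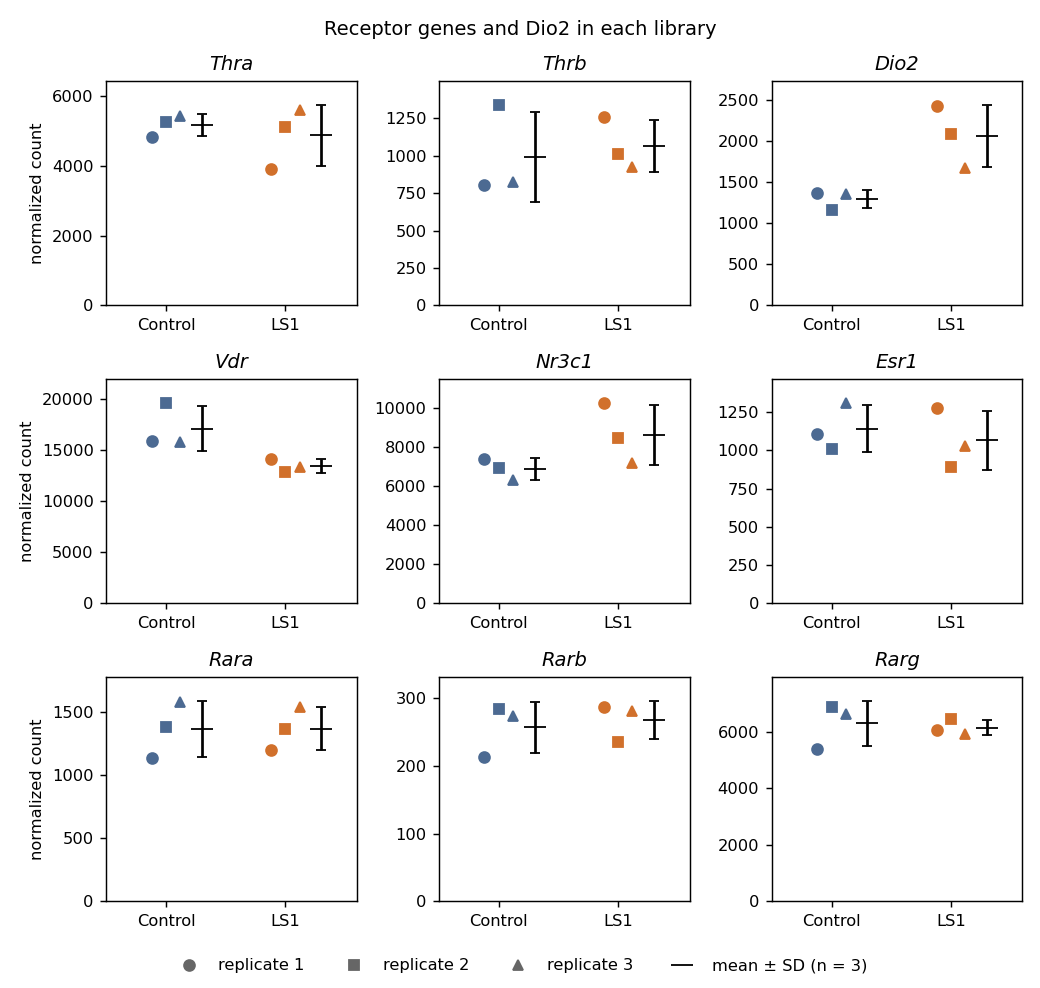
Normalized count of each gene (vertical axes, starting at 0) in the 3 Control (blue) and 3 LS1 (orange) libraries, 1 mouse per point, with mean and SD (n = 3) in black. All LS1 points lie above Control for *Dio2* and below Control for *Vdr*, and the groups overlap in the other 7 panels.

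The promoters of *Dio2* and *Vdr*, the genes whose groups did not overlap, are shown together with those of *Rarb* and *Cyp26a1*, which carry the textbook arrangement of a retinoic acid response element. Receptor pairs with RXR recognize direct repeats of the hexamer AGGTCA. Either purine was allowed at its start and T for the last of its Gs, on both strands, and the number of bases between the repeats differs between receptors: 3 for vitamin D (DR3), 4 for thyroid hormone (DR4) and 5 for retinoic acid (DR5). RefSeq promoter windows of 300 bases (GRCm38.p6) were at hand for 7 of the 9 genes, in 13 windows, and *Thra* and *Nr3c1* had none. The 250 bases before the start are printed, with the motif in capitals: DR5 for *Rarb* and *Cyp26a1*, the cyclic AMP response element TGACGTCA for *Dio2*, and the GC box GGGCGG for *Vdr*. The windows are chr14:16575477-16575726 (minus strand) for *Rarb*, chr19:37697558-37697807 (plus strand) for *Cyp26a1*, chr12:90739039-90739288 (minus strand) for *Dio2* and chr15:97908297-97908546 (minus strand) for *Vdr*.
*Rarb*: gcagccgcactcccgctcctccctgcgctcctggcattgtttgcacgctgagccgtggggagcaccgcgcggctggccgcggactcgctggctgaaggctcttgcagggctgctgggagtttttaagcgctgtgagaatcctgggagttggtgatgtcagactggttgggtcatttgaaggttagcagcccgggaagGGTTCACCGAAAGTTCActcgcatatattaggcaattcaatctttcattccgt
*Cyp26a1*: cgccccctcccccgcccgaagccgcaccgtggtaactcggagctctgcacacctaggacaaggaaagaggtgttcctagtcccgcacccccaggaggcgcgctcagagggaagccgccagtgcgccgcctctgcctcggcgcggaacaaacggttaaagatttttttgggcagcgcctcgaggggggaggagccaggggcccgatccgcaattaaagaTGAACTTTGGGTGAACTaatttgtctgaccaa
*Dio2*: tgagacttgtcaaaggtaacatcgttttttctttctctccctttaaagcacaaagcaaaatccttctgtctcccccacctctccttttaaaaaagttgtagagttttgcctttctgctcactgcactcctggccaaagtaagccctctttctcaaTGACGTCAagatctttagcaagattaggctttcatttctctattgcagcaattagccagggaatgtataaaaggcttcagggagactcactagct
*Vdr*: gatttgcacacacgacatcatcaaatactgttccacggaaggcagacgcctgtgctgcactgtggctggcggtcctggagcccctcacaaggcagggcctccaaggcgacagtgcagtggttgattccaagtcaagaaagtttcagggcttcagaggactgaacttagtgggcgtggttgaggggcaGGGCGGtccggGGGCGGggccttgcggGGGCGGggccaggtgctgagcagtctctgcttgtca

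The DR5 of *Rarb* began 53 bases before the RefSeq start of its window, and that of *Cyp26a1*, on the opposite strand, 32 bases before its own. The starts of the *Rarb* and *Vdr* windows lie inside the gene spans given below, and that of *Dio2* lies outside its span. A DR5 was found in 0.0974% of the 32851 windows of all genes, and in 1 of the 13 windows of the receptor genes and *Dio2*. *Dio2* held TGACGTCA, the site of CREB and related factors, 95 bases before its RefSeq start, and 1.79% of all windows hold it. *Vdr* held GGGCGG 3 times, and the motif was in 6 of the 13 windows (those of *Rara*, *Rarg*, *Thrb* and *Vdr*) and in 35.7% of all windows. The DR3 and DR4 letters were in 0 of the 13 windows, and in 0.0396% and 0.0822% of all windows. The estrogen receptor palindrome, GGTCA followed after 3 bases by its reverse complement, was also in 0 of the 13 windows and in 0.0700% of all windows. These are matches of letters, and binding was not measured.

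The thyroid hormone group holds *Dio2* and the receptor genes *Thra* and *Thrb*. *Dio2* (ENSMUSG00000007682, GRCm38 chr12:90724552-90738438) had 1368, 1170 and 1357 normalized counts in Control and 2433, 2086 and 1680 in LS1. Every LS1 value was above every Control value, as in 10.3% of all genes, and LS1 replicate 3 was nearest to Control. The means were 1298 ± 112 in Control and 2066 ± 377 in LS1 (SD, n = 3). The log2 fold change was 0.66 (SE 0.17, 95% interval 0.28 to 1.04), a 1.58-fold higher level (1.21 to 2.05). It did not pass with limma (adjusted p = 0.220) or edgeR (adjusted p = 0.217), and it passed with DESeq2 (log2 fold change 0.66, SE 0.19, adjusted p = 0.0262). Without LS1 replicate 3 the limma difference was 0.80 and passed (adjusted p = 0.0443), in a fit that called 1.68% of all genes. With each library left out in turn it ranged from 0.53 to 0.80, with limma adjusted p from 0.0443 to 0.532.

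*Dio2* has 1 annotated transcript, and 100 of its exon bases (1.72%) are shared with *Gm26512*, a noncoding RNA gene on the opposite strand whose mean was 34.3 reads. The setting of the counting for strand is not given in the sources used here. The deiodinases *Dio1*, which also activates thyroxine, and *Dio3*, which inactivates both hormones, were too low to test. *Dio1* lay between 0 and 6.05 normalized counts and *Dio3* between 4.43 and 17.7, and the level of *Dio2* per kilobase of exon was 31.6 to 104.6 times that of *Dio3* over the 6 libraries.

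Growth plate chondrocyte markers were also higher in every LS1 library by their sum. Their summed normalized count lay between 2306168 and 2620261 in the Control mice and between 2969328 and 3470824 in the LS1 mice, and 11 of 12 markers had a positive log2 fold change (median 0.49, against 0.66 for *Dio2*). None of them was at 0 in any library. Limma called 0 of the 12 (0.0725% of all genes). An unadjusted limma p-value under 0.05 was held by 7 (58.3%, beside 12.9% of all genes), and DESeq2 called 5 (2.38% of all genes). All 10 erythroid markers had a negative log2 fold change (median -0.55), with sums of 1745870 to 2283320 in Control and 930601 to 1146936 in LS1. Limma called 2 of these as lower, beside 0.0622% of all genes. The parts of chondrocyte markers, erythroid markers and depth in the *Dio2* difference were not tested.

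*Thra* (ENSMUSG00000058756, chr11:98740638-98769006), which encodes the main thyroid hormone receptor of the skeleton, had 4810, 5250 and 5426 normalized counts in Control. In LS1 it had 3907, 5099 and 5593, so the LS1 mice spanned a range that included all Control values. The log2 fold change was -0.10 (SE 0.15, 95% interval -0.44 to 0.24, limma adjusted p = 0.822). Its transcripts include one for a variant that does not bind hormone, and counts per gene do not separate the variants. The 3′ end of *Thra* shares 263 exon bases (5.70%) with *Nr1d1*, the circadian repressor gene on the opposite strand.

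*Thrb* (ENSMUSG00000021779, chr14:17660261-18038090) had 807, 1338 and 826 normalized counts in Control and 1256, 1009 and 927 in LS1. Control replicate 2 was the highest of all 6 libraries and the other 2 Control libraries the lowest. The log2 fold change was 0.13 (SE 0.22, 95% interval -0.36 to 0.63, limma adjusted p = 0.840), and it ran from 0.00535 to 0.37 with each library left out. Per kilobase of exon, *Thra* made up 83.3% to 91.3% of the summed level of both receptor genes (88.7% to 94.3% with the longest transcript as the length), and the ratio of *Thra* to *Thrb* was 8.80 ± 2.22 in Control and 7.59 ± 2.39 in LS1 (SD, n = 3), with overlapping ranges.

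*Vdr* (ENSMUSG00000022479, chr15:97854425-97910630), the receptor of the active form of vitamin D, had 15909, 19595 and 15738 normalized counts in Control and 14169, 12880 and 13303 in LS1. Every LS1 value was below every Control value, as in 8.94% of all genes, and Control replicate 2 stood above the rest. The means were 17081 ± 2179 in Control and 13450 ± 657 in LS1 (SD, n = 3). The log2 fold change was -0.34 (SE 0.13, 95% interval -0.63 to -0.05), a ratio of 0.791 (0.646 to 0.968). It did not pass with limma (adjusted p = 0.323) or DESeq2 (adjusted p = 0.232), nor in any of the 17 alternatives, and with each library left out it ranged from -0.39 to -0.24.

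Osteoblasts and osteocytes express *Vdr*, and the sums of their 11 markers were 5278104 to 6220275 normalized counts in Control and 4376008 to 5295211 in LS1, ranges that overlap slightly. Of these markers 5 had a positive and 6 a negative log2 fold change (median -0.04, against -0.34 for *Vdr*), and none was at 0 in any library. B cell markers were also lower, with sums of 51765 to 55021 in Control and 31316 to 48375 in LS1 and 8 of 9 negative. The parts of these cells in the *Vdr* difference were not tested.

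*Nr3c1* (ENSMUSG00000024431, chr18:39410545-39519421), the glucocorticoid receptor, had 7391, 6896 and 6287 normalized counts in Control and 10231, 8430 and 7164 in LS1. LS1 replicates 1 and 2 were above all Control mice, and LS1 replicate 3 was within the Control range. The log2 fold change was 0.32 (SE 0.15, 95% interval -0.02 to 0.65, limma adjusted p = 0.409). Without LS1 replicate 3 it was 0.44 (limma adjusted p = 0.187), and with each library left out it ranged from 0.18 (without LS1 replicate 1) to 0.44. The ratio of *Vdr* to *Nr3c1* per kilobase lay between 2.93 and 3.86 in Control mice and between 1.88 and 2.53 in LS1 mice, without overlap. This ratio was formed after the values of both genes were seen and was not tested, and *Vdr* alone already separated the groups.

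*Esr1* (ENSMUSG00000019768, chr10:4611593-5005614), which encodes estrogen receptor alpha, had 1107, 1007 and 1310 normalized counts in Control and 1275, 893 and 1028 in LS1. The groups overlapped, with a log2 fold change of -0.11 (SE 0.19, 95% interval -0.52 to 0.31, limma adjusted p = 0.850). *Esr2*, which encodes estrogen receptor beta, was too low to test, at 8.85 to 39.2 normalized counts.

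With limma, the retinoic acid receptor genes had the log2 fold changes nearest to 0. *Rarg* (ENSMUSG00000001288, chr15:102234938-102257517), the receptor gene typical of cartilage, had 5394, 6877 and 6614 normalized counts in Control and 6049, 6460 and 5932 in LS1. *Rara* (ENSMUSG00000037992, chr11:98927818-98974942), the broadly expressed member, had 1137, 1382 and 1577 in Control and 1200, 1367 and 1537 in LS1. *Rarb* (ENSMUSG00000017491, chr14:16430839-16819156), itself a target of retinoic acid through the DR5 printed above, had 214, 284 and 274 in Control and 287, 236 and 282 in LS1. All 3 genes overlapped between groups.

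Their log2 fold changes were -0.03 for *Rarg* (SE 0.14, 95% interval -0.32 to 0.27), 0.0081 for *Rara* (SE 0.18, interval -0.38 to 0.40) and 0.06 for *Rarb* (SE 0.23, interval -0.44 to 0.57). The limma adjusted p-values were 0.952, 0.992 and 0.932. Changes in either direction within these intervals were compatible with the values at this depth and number of mice. The intervals are not a limit of detection, since *Dio2*, at 0.66, lay outside them and did not pass limma (adjusted p = 0.220). The *Rarb* value carries a further limit, since 34.1% of its exon bases (1793) are shared with *Top2b* on the opposite strand, a gene with a mean of 27358 reads. Per kilobase, *Rarg* made up 77.4% to 81.3% of the summed level of the family, *Rara* 15.7% to 19.6% and *Rarb* 2.39% to 3.11%. None of these shares separated the groups.

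**Figure D2:**
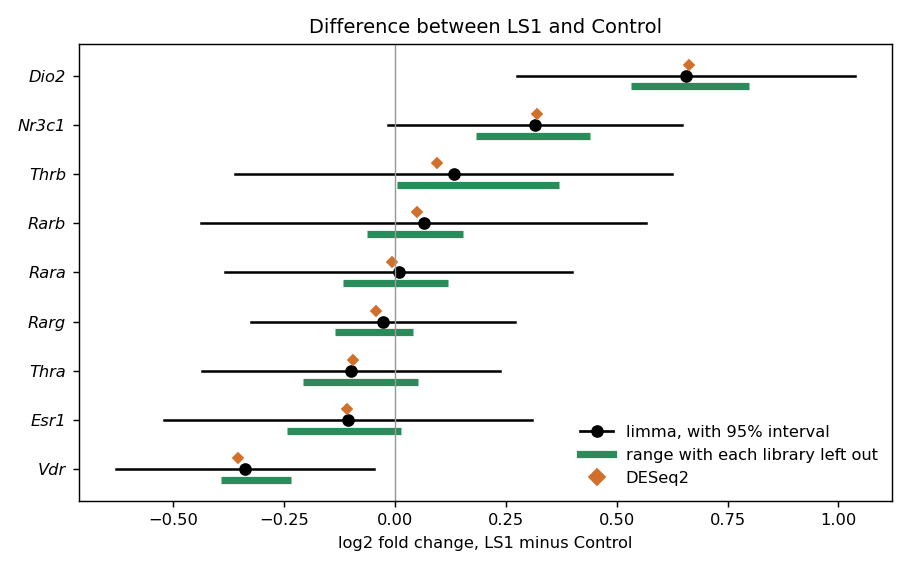
Log2 fold change (LS1 minus Control, horizontal axis) of the 9 genes from limma with its 95% interval (black), the range with each library left out (green) and the DESeq2 value (orange). The limma intervals of *Dio2* (0.28 to 1.04) and *Vdr* (-0.63 to -0.05) lie to one side of 0.

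Levels of different genes were compared per kilobase of exon. *Vdr* was the highest, with a mean of 2702 normalized counts per kilobase (range over the 6 libraries 2280 to 3468), and *Rarg* followed at 1460 (1266 to 1614). *Thra* at 1087 (847 to 1212) and *Nr3c1* at 1006 (818 to 1331) overlapped, so at this length their order is within the spread between mice. *Rara* at 313 (261 to 361) and *Dio2* at 289 (201 to 418) also overlapped, and the mean of *Dio2* was above that of *Rara* in LS1 and below it in Control. *Thrb* at 139 (109 to 181), *Esr1* at 80.8 (65.4 to 95.9) and *Rarb* at 49.9 (40.6 to 54.4) closed the order. With the longest transcript as the length, *Thra* was at 2045 and *Rarb* at 84.5, and *Esr1* (174) and *Thrb* (166) changed places while the other ranks stayed. *Thra* (1593 to 2281) then overlapped *Rarg* (1827 to 2329) and no longer *Nr3c1* (977 to 1590), so which neighbors differ depends on the length used. *Vdr* lay at the 92.9th percentile of all tested genes and *Rarb* at the 22.1st.

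**Figure D3:**
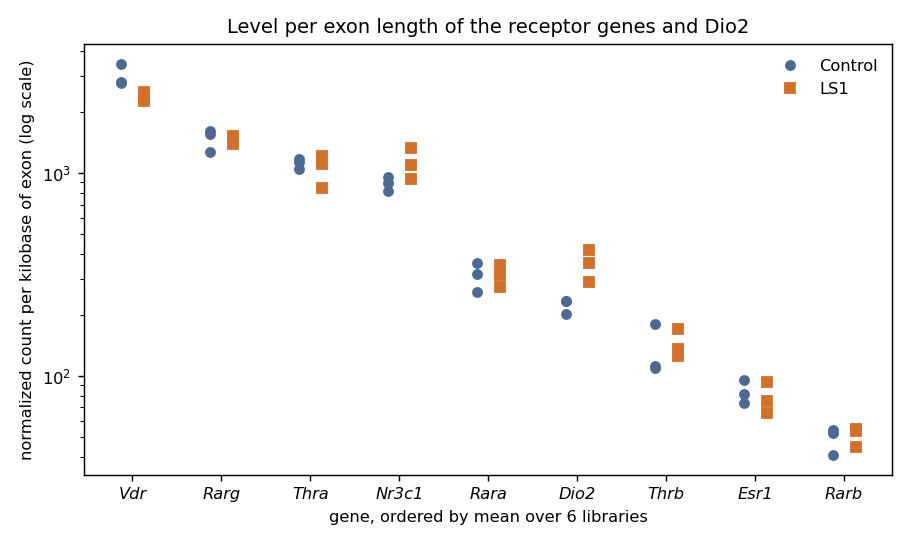
Normalized count per kilobase of exon (log scale) of the 9 genes in the 3 Control (blue circles) and 3 LS1 (orange squares) libraries, ordered by the mean over 6 libraries. Means run from 2702 for *Vdr* to 49.9 for *Rarb*, and *Thra* overlaps *Nr3c1* as *Rara* overlaps *Dio2*.

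Pairs of the genes lie on chromosomes 11, 14 and 15. *Thra* and *Rara* are 158.8 kb apart on chromosome 11, *Rarb* and *Thrb* 841.1 kb apart on chromosome 14, and *Vdr* and *Rarg* 4324.3 kb apart on chromosome 15. Limma called neither gene of any pair.

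The genes whose profile over the 6 libraries was closest to a member were found by the root mean square (RMS) difference of centered log2 values. For *Dio2* these were *Fam49a*, *Pdia3* and *Sowahc*, each with an RMS difference of 0.078, beside a median of 0.455 over all genes. *Pdia3*, an endoplasmic reticulum chaperone also described as a membrane partner of vitamin D, is in the vitamin D list below. For *Nr3c1* they were *Zfp266*, *Elmod2* and *Rab21* (0.024 each, median 0.352), and for *Thrb* they were *Platr25* (0.053), *Pcdh11x* (0.060) and *Zfp46* (0.075, median 0.385). These values describe 6 libraries that also share depth and group.

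The pathways around the receptors were described with 8 lists of transporters, enzymes, targets, partners, coregulators and other nuclear receptors, 137 distinct genes of which 109 were tested. Limma called 0 of the 109 and edgeR 0. With limma 16 had a positive and 7 a negative log2 fold change at an unadjusted p-value under 0.05 (21.1%, beside 12.9% of all genes). DESeq2 called 3 as higher, among them *Pdia3* and *Dhrs9*, and 2 as lower (*Aldh1a1* and *Rorb*), against 1.43% higher and 0.943% lower of all genes. The median over the 109 genes was 0.04 (0.0058 without LS1 replicate 3), and the list medians ran from -0.12 (thyroid hormone) to 0.11 (vitamin D).

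In the thyroid hormone list, 0 of 11 tested genes were called by limma or DESeq2. An unadjusted limma p-value under 0.05 was held by 2 (18.2%, beside 12.9% of all genes). The known targets *Mbp*, a myelin protein gene, and *Nrgn* were lower in LS1, with log2 fold changes of -0.36 (limma adjusted p = 0.347) and -0.53 (0.358). *Mbp* had 2381 to 2783 normalized counts in Control and 1724 to 2173 in LS1, and *Nrgn* 737 to 1264 and 538 to 704. Without Control replicate 1, the *Nrgn* difference was -0.30. The transporter gene *Slco1c1* was at 28.8 to 35.3 in Control and 41.8 to 64.4 in LS1 (0.67, adjusted p = 0.458). The target *Klf9*, chosen after its values were seen, was at -0.08 (adjusted p = 0.862). Of the 11 genes, 4 had positive and 7 negative log2 fold changes.

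In the vitamin D list, DESeq2 called 1 of 10 tested genes and limma 0, with 2 at an unadjusted limma p-value under 0.05. *Pdia3* had 51668, 49383 and 58469 normalized counts in Control and 96381, 77395 and 66305 in LS1, a log2 fold change of 0.58 (SE 0.16, limma adjusted p = 0.227, DESeq2 adjusted p = 0.0455). *Tnfsf11*, the osteoclast differentiation factor RANKL, had 841 to 1144 in Control and 1179 to 1441 in LS1 (0.42, limma adjusted p = 0.362). The calcium channel gene *Trpv5* had 29.9 to 55.4 and 5.60 to 26.1 (-1.27, adjusted p = 0.391). Without LS1 replicate 3, the lowest library, *Trpv5* was at -0.59 (limma adjusted p = 0.550). *Spp1*, which encodes osteopontin, was at 0.12 (adjusted p = 0.829) and at -0.0922 without LS1 replicate 3. *Cyp24a1*, the enzyme that degrades active vitamin D and the usual marker of receptor activity, was at 0 to 3.33 normalized counts and was not tested, and *Cyp27b1*, which makes active vitamin D, was at 16.6 to 40.4 (-0.07, adjusted p = 0.967).

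In the retinoid list, 16 genes were tested and limma called 0. The unadjusted limma p-value was passed by 5 positive and 1 negative (37.5%, beside 12.9% of all genes). *Aldh1a1*, one of the enzymes that make retinoic acid, had 6622, 7489 and 6000 normalized counts in Control and 3325, 4373 and 3671 in LS1, with no overlap. Its log2 fold change was -0.83 (SE 0.15, limma adjusted p = 0.105, DESeq2 adjusted p = 0.00037), and it was called in 3 of 17 alternatives. *Dhrs9*, a retinol dehydrogenase gene, had 291, 282 and 310 in Control and 498, 511 and 460 in LS1, with a log2 fold change of 0.73 (SE 0.19, limma adjusted p = 0.220, DESeq2 adjusted p = 0.0174). *Rbp4*, the retinol carrier, had 3905 to 4186 in Control and 4357 to 6423 in LS1 (0.35, limma adjusted p = 0.378), and without LS1 replicate 3, the highest library, the difference was 0.19 (limma adjusted p = 0.555). *Cyp26a1*, the degrading enzyme whose DR5 is printed above, was low and overlapped, at 17.7 to 61.0 in Control and 18.3 to 49.5 in LS1 (-0.46, adjusted p = 0.754, and -0.26 without LS1 replicate 3).

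In the estrogen list, 0 of 8 tested genes were called by limma or DESeq2. An unadjusted limma p-value under 0.05 was held by 3 (37.5%, beside 12.9% of all genes). *Hsd17b12* (0.32, limma adjusted p = 0.337) and *Xbp1* (0.32, adjusted p = 0.339) were higher in every LS1 mouse. *Cyp19a1*, the aromatase gene, was at 0 to 6.96 normalized counts and was not tested.

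In the glucocorticoid list, limma and DESeq2 called 0 of 17 tested genes, and 3 passed the unadjusted limma p-value (17.6%, beside 12.9% of all genes). *Sgk1*, a kinase gene induced by glucocorticoid, had 4041, 4250 and 3229 normalized counts in Control and 5863, 5131 and 4714 in LS1 (0.45, SE 0.15, limma adjusted p = 0.277). The palindrome that glucocorticoid receptors bind, AGAACA followed after 3 bases by its reverse complement, was in 3 of all 32851 promoter windows (0.00913%). Among these is 1 of the windows of *Sgk1*, a gene with more than 1 annotated start. In that window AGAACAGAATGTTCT began 189 bases before the start the window belongs to. *Hsd11b1*, which regenerates active glucocorticoid in cells, had 642, 540 and 698 in Control and 831, 894 and 890 in LS1 (0.48, SE 0.18, adjusted p = 0.310). *Nr3c2*, the mineralocorticoid receptor gene, overlapped (0.90, adjusted p = 0.344, and 0.47 without Control replicate 3, the lowest library). The targets *Fkbp5* (-0.01, adjusted p = 0.976) and *Tsc22d3* (0.20, adjusted p = 0.552), chosen after their values were seen, also overlapped. Across the 17 genes, 7 had positive and 10 negative log2 fold changes (median -0.01).

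Among the RXR genes, *Rxrg* had 22.2, 17.7 and 21.0 normalized counts in Control and 42.9, 52.2 and 38.2 in LS1 (1.09, SE 0.38, limma adjusted p = 0.293). Per kilobase it made up 0.320% to 0.423% of the RXR sum in Control and 0.669% to 0.963% in LS1. *Rxra* (50.2% to 57.1%) and *Rxrb* (41.9% to 49.1%) held nearly all of it, at -0.0079 (adjusted p = 0.988) and -0.14 (adjusted p = 0.762). *Rxra* changed sign under another normalization.

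Of the 22 coregulators, limma and DESeq2 called 0, and 1 passed the unadjusted limma p-value (4.55%, beside 12.9% of all genes). It was *Gps2*, a subunit of the corepressor complex (-0.46, limma adjusted p = 0.298). The corepressor *Ncor1* was at 0.34 (adjusted p = 0.449) with overlapping groups, and at 0.20 without Control replicate 3. Of 23 other nuclear receptors, DESeq2 called 2 (beside 2.38% of all genes), among them *Rorb*. It had 1044, 1063 and 1064 normalized counts in Control and 819, 513 and 370 in LS1 (-0.97, SE 0.26, limma adjusted p = 0.220, DESeq2 adjusted p = 0.0289). *Nr1h3*, a liver X receptor gene, was at 0.46 (limma adjusted p = 0.339), and *Nr1d1* overlapped between groups at -0.58 (adjusted p = 0.339).

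**Figure D4:**
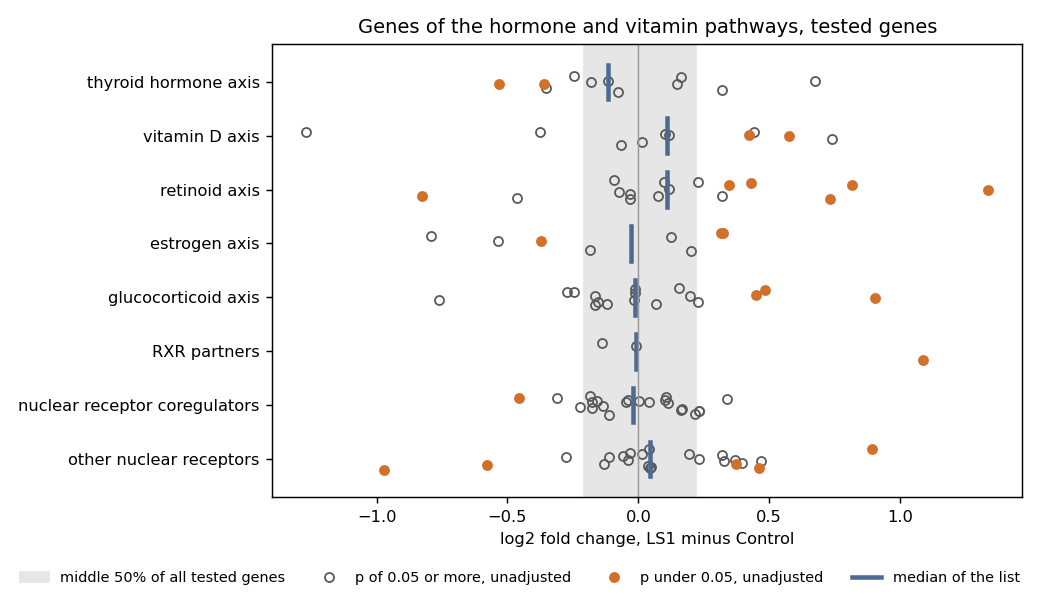
Log2 fold change (LS1 minus Control, horizontal axis) of each tested gene of the 8 pathway lists, filled where the unadjusted p-value was under 0.05, with list medians in blue and the middle 50% of all tested genes shaded. List medians lie between -0.12 and 0.11, and no gene passed the adjusted threshold with limma.

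**Figure D5:**
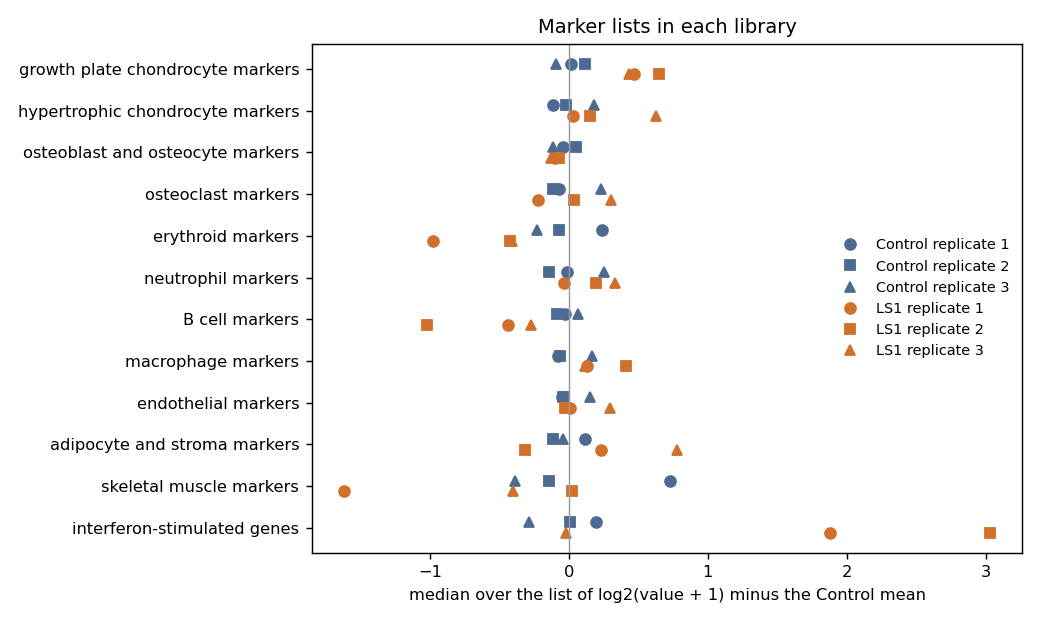
Median over each marker list of log2(normalized count + 1) minus the mean of the Control libraries (horizontal axis), for 3 Control (blue) and 3 LS1 (orange) libraries. Chondrocyte markers are higher and erythroid markers lower in all LS1 libraries, and the interferon-stimulated genes are high in LS1 replicates 1 and 2 (1.88 and 3.03) but not in LS1 replicate 3 (-0.02).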

How the data were processed

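The members and gene lists were chosen with earlier results of these data known. RNA of 6 mice was sequenced. Reads were mapped to GRCm38 with HISAT2 2.0.2 (annotation of Ensembl release 84) and counted per gene with featureCounts 1.4.6, per the study's methods. Each deposited signal is a read count over the size factor that the authors gave its library, and all genes were kept. Every value was a whole multiple of 1 read (100% of values, tolerance 0.01), worth 0.870 to 1.11, so reads were recovered. In Control replicate 1 that step was 1.009. Testing covered genes averaging 20 or more reads and used limma 3.58.1 in R 4.3.3 (trend, robust) on log2(value + 1), which understates changes of low genes. The Benjamini-Hochberg threshold was 0.05. The design fixed limma as the main test for normalized values. DESeq2 1.42.0, edgeR 4.0.16, limma-voom and other settings were alternatives, 17 in all, 1 of them added after seeing the data.

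Symbols and coordinates came from GENCODE M21 (99.1% of identifiers matched). The genes named were the 9 members, the 3 genes of each list with the smallest p and the 3 with the highest level per kilobase, genes overlapping a member, and the 3 closest profiles of the 3 most variable members. Further examples were picked with their values in view, and some genes that the rule names are not reported here. Promoters came from RefSeq. The scripts were tested on simulated data. With 3 mice per group an exact permutation test cannot go below p = 0.1.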

Additional observations from a re-analysis of the deposited data

How the results depend on the processing

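The number of genes called by limma, 14, changed to 7 with edgeR, 459 with DESeq2, 8 with limma-voom, 45 without a filter, 9 with a mean of at least 100 reads, 3 without trend and robust moderation and 5 with edgeR without Control replicate 1 (added after seeing the data). Leaving out each library gave 5 to 324 calls, the highest without LS1 replicate 3. All 14 limma calls were also called by DESeq2. Of the 9 genes (8 receptor genes and *Dio2*), 0 were called, 1 (*Dio2*) with DESeq2, and 0 to 1 with each library left out (*Dio2* without LS1 replicate 3). Of the pathway genes 0 were called, 5 with DESeq2, 1 without a filter (*Aldh1a1*), and 0 to 1 with each library left out (*Rorb* without LS1 replicate 1, *Aldh1a1* without LS1 replicate 3). The cause of these shifts was not tested.

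The groups share letters in the sample titles, whose meaning is not given. Deviations of libraries with the same letter correlated at 0.054, 0.021 and 0.224, and not every library correlated best with its own letter, so the letters were not taken as pairs. With the letter as a replicate block 12 genes were called, 0 of them among the 9 genes, and *Dio2* had an adjusted p = 0.12 (limma).

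Sign changes under an alternative occurred in 13 of the values recomputed for the 9 genes (138 others kept direction and call, 2 became called) and in 37 of those for the other named genes. With each library left out, the log2 fold changes that crossed 0 ranged as follows. For *Thra* -0.21 to 0.0507, *Esr1* -0.24 to 0.0134, *Rara* -0.12 to 0.12, *Rarb* -0.0631 to 0.15, *Rarg* -0.13 to 0.0404, *Spp1* -0.0922 to 0.23, *Cdkn1a* -0.0559 to 0.0618. For *Tgm2* -0.0714 to 0.27, *Aldh1a3* -0.11 to 0.31, *Cxcl12* -0.0613 to 0.24, *Mt2* -0.48 to 0.0881, *Cdkn1c* -0.0203 to 0.28, *Rxrb* -0.24 to 0.0524, *Rxra* -0.0907 to 0.0768. For *Prmt1* -0.14 to 0.23, *Hdac3* -0.0924 to 0.026, *Nr1d2* -0.17 to 0.067, *Top2b* -0.11 to 0.0848, *Platr25* -0.0855 to 0.31, *Pcdh11x* -0.0268 to 0.32, *Zfp46* -0.11 to 0.21. With edgeR and without Control replicate 1, *Thrb* was at -0.0435, *Rara* was at -0.13, *Rarb* was at -0.0779, *Cdkn1a* was at -0.0741, *Platr25* was at -0.14, *Pcdh11x* was at -0.0619, *Zfp46* was at -0.11. With edgeR quasi-likelihood, *Rara* was at -0.0108, *Zfp46* was at -0.00915. With DESeq2, *Rara* was at -0.00719, *Zfp46* was at -0.0056. With limma-voom, *Rara* was at -0.000133, *Top2b* was at -0.00378. With TMM factors, *Rxra* was at 0.0028. 

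Depth limits the low genes most: *Rxrg*, *Trpv5* and *Cyp27b1* had at most 55.4 normalized counts in a library, and 27 pathway genes were too low to test. Counting used all exons of a gene, so isoforms, including the variants of *Thra*, are not separated, and overlaps on the opposite strand remain for *Rarb*, *Thra* and *Dio2*. With 3 mice per group and 1 selected line, changes within the intervals given remain compatible with the values, and larger changes can also be missed.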

Other observations

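Interferon-stimulated genes, which cells switch on after interferon signaling, had positive log2 fold changes in 12 of 12 tested members (median 1.57), with summed normalized counts between 11499 and 19578 in Control mice and between 15015 and 58193 in LS1 mice. The groups overlapped in the sum, and the list median per library was 1.88, 3.03 and -0.02 above the Control mean in LS1 replicates 1, 2 and 3. Limma called 0 of the 12, 1 had an unadjusted p-value under 0.05 (12.9% over all genes), and DESeq2 called 2 (2.38% over all genes). Skeletal muscle markers had negative log2 fold changes in 9 of 9 members (median -0.68), with sums of 10365 to 23748 in Control and 5547 to 14549 in LS1. Limma and DESeq2 called 0 of these, and 1 had an unadjusted limma p-value under 0.05. Macrophage, endothelial, neutrophil, osteoclast, and adipocyte and stroma lists had medians of 0.23, 0.09, 0.19, 0.03 and 0.22, and hypertrophic chondrocyte markers 0.36. Without LS1 replicate 3 these medians were 0.28, -0.0079, 0.0880, -0.11 and -0.07 in the same order, and 0.18 for the hypertrophic markers, so the endothelial, osteoclast, and adipocyte and stroma medians changed sign.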
